A study of Mus musculus with 9 samples.

Results

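The homeobox genes examined here were the 113 of 18193 measured genes whose annotated symbol begins with Hoxa to Hoxd, Nkx, Pax, Irx, Lhx, Dlx, Pitx, Meis, Pbx, Msx, Otx, Emx, Barx, Prrx, Tgif or Cux followed by a number, or belongs to the sine oculis family (Six2 and relatives). They were selected by name and not by any measured value, though the name rule was chosen with earlier results of these data known. By name they fell into 20 families, counting the Hox clusters separately, and 12 of the 113 were opposite-strand or antisense transcripts named after a neighbouring gene, which leaves 101 genes for proteins. Pax1 and Pax9 are in the set by name although these paired-box proteins lack a homeodomain. Each gene was read from 1 probe set, the one with the highest mean over the arrays.

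Homeobox genes encode transcription factors that bind DNA through a homeodomain. They set the identity of body regions and organs in the embryo, and many stay active in the adult tissue. Hox genes lie in clusters in which the paralog number follows position along the body axis, with low numbers active towards the head and high numbers towards the tail. Pbx, Meis and Tgif proteins belong to the class with a 3-residue loop extension (TALE), whose Pbx and Meis members bind DNA together with Hox proteins. In the airway, Nkx2-1 is the factor that marks respiratory endoderm, and Hoxa5 is needed for normal development of the trachea and lung.

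RNA came from tracheal epithelium of KRT5-GFP hemizygous transgenic mice, in which a keratin 5 promoter drives green fluorescent protein (GFP), so the reporter marks cells with an active promoter and not a lineage. Dissociated cells were sorted by flow cytometry on GFP and on the isolectin GSI-A3B into 3 gates, with 3 biological replicates each and so 9 Affymetrix arrays. The GFP+ gate (KRT5-GFP+, lectin+) and the lectin-only gate (KRT5-GFP-, lectin+) both carry the name basal cells in the labels, and the columnar gate (KRT5-GFP-, lectin-) is named columnar epithelium. All 3 gates came from transgenic mice, and their background strain, age and number per replicate are not given in the sources used here.

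Marker genes separated the gates, and the lectin-only gate also carried leukocyte transcripts. Trp63, the basal cell transcription factor, averaged 7.62 ± 0.32 on the log2 scale (SD over 3 arrays) in the columnar, 11.94 ± 0.14 in the lectin-only and 13.06 ± 0.13 in the GFP+ gate, and Krt5 had 7.95 ± 1.12, 12.88 ± 0.15 and 13.43 ± 0.01. Foxj1, the regulator of motile cilia, lay at 7.30 ± 0.10, 5.44 ± 0.32 and 4.09 ± 0.40, and the club cell secretoglobin Scgb1a1 at 13.74 ± 0.11, 13.69 ± 0.07 and 13.64 ± 0.13. Unlike Scgb1a1, the list of 14 secretory markers was lower on average in the lectin-binding gates, with means of 12.09 to 12.24 on the columnar, 11.05 to 11.39 on the lectin-only and 9.85 to 10.66 on the GFP+ arrays. Of these 14, 8 were called lower in GFP+ and 7 in lectin-only than in columnar. The count of 7 was 2 or 3 when any columnar array or replicate 1 or 2 of the lectin-only gate was left out. Ptprc, the pan-leukocyte phosphatase CD45, lay at 3.25 ± 0.98, 8.95 ± 0.72 and 5.41 ± 0.87, and the fibroblast collagen Col1a1 at 7.36 ± 0.40, 7.36 ± 0.58 and 4.17 ± 1.02. The mean signal of 24 leukocyte markers ranged from 5.24 to 5.93 over the columnar, 9.12 to 9.72 over the lectin-only and 5.96 to 7.19 over the GFP+ arrays. Smooth muscle markers (10 genes) ranged from 4.12 to 4.20, 5.30 to 5.84 and 4.92 to 5.35, and fibroblast markers (18 genes) from 5.10 to 5.42, 5.55 to 5.97 and 4.71 to 5.07. The fibroblast markers did not move as 1 in GFP+ against columnar. There 5 of the 18, Col1a1 among them, were called lower, and 3 higher, namely Dcn (4.36), Fbln1 (3.37) and Fn1 (1.76). Against the columnar gate, 11 of 12 basal markers were called higher in each lectin-binding gate, as were 3 of 10 smooth muscle markers in GFP+ and 4 of 10 in lectin-only. The latter count was 2 when replicate 1 or 2 of the columnar, 1 of the lectin-only or 3 of the GFP+ gate was left out, and with arrays centred or quantile normalized. The part of other cell types in the homeobox differences was not tested, and in sorted bulk samples fewer cells of a type and less RNA per cell cannot be told apart. Replicate 3 of the lectin-only gate stood apart, with 73.0% of probe sets above the background level against 65.3% to 66.3% on the other 8 arrays.

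**Figure D1:**
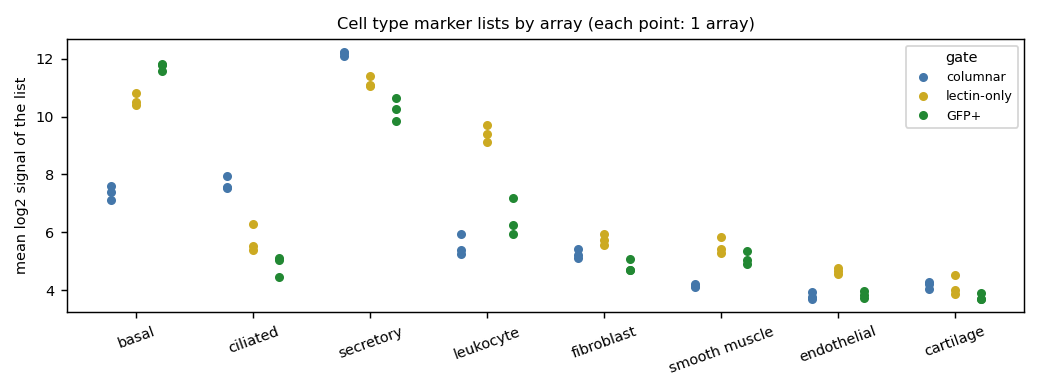
Mean log2 signal of cell type marker lists on each of the 9 arrays, by gate, with 1 point per array. Leukocyte markers lie between 9.12 and 9.72 on the lectin-only arrays and at or below 7.19 on the others.

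Of the 113 homeobox genes, 62 were expressed. A gene is called expressed here where its probe set lay above a background log2 signal of 3.56 on all 3 arrays of at least 1 gate, a level set from probe sets of olfactory and vomeronasal receptors. These 62 are 54.9% of the set, against 76.2% of all 18193 genes. Of them, 49 were above the level on all 9 arrays and 13 in some gates only, and 31 of the 113 were above it on no array. A probe set under the level gives no measure of the gene, since probe sets differ in how well they bind. Among the 9 genes above the level on a single array, 5 were above it on lectin-only replicate 3, the array with the most probe sets above background. Of the 12 opposite-strand transcripts, 2 were expressed, Dlx4os and Hoxb5os.

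The families differed in how many members were expressed. The TALE families Meis, Pbx and Tgif had all 8 of 8 members above the level on all 9 arrays, as had Barx (2 of 2) and Cux (2 of 2). Of the Irx genes, a TALE family of patterning factors, 4 of 6 were expressed, as were 4 of 6 genes of the sine oculis family, 8 of 12 Nkx genes, 5 of 9 Pax genes, 4 of 9 Lhx genes and 4 of 10 Dlx genes. Emx, Msx and Otx each had 1 expressed gene of 3, and Pitx and Prrx 1 of 2. By cluster, 6 of 10 Hoxa, 6 of 10 Hoxb, 3 of 7 Hoxc and 1 of 9 Hoxd genes were expressed. All of these family counts, Hox or not, include opposite-strand transcripts and so are not counts of protein genes. Outside Hox these transcripts were Dlx1as, Dlx4os, Dlx6os1, Dlx6os2, Emx2os, Lhx1os, Otx2os1, Pax6os1 and Six3os1. Of them Dlx4os alone was expressed, as 1 of the 4 expressed Dlx members.

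The expressed Hox genes lay mainly in the low paralog groups. Of the 33 Hox protein genes measured, 15 were expressed. In paralog groups 2 to 5 this held for 10 of 11 genes, 9 of them on all 9 arrays, with Hoxd3 above the level on no array. In groups 6 and 7, 3 of 4 genes were expressed (Hoxb6, Hoxc6 and Hoxa7). In groups 8 to 13 this held for 2 of 16, Hoxa9 and Hoxd9, and for neither on all 9 arrays. None of the 10 genes of groups 10 to 13 was expressed, and 8 of them were above the level on no array. Both measured group 1 genes, Hoxb1 and Hoxd1, were also not expressed. The order is a description of counts, with no test.

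**Figure D2:**
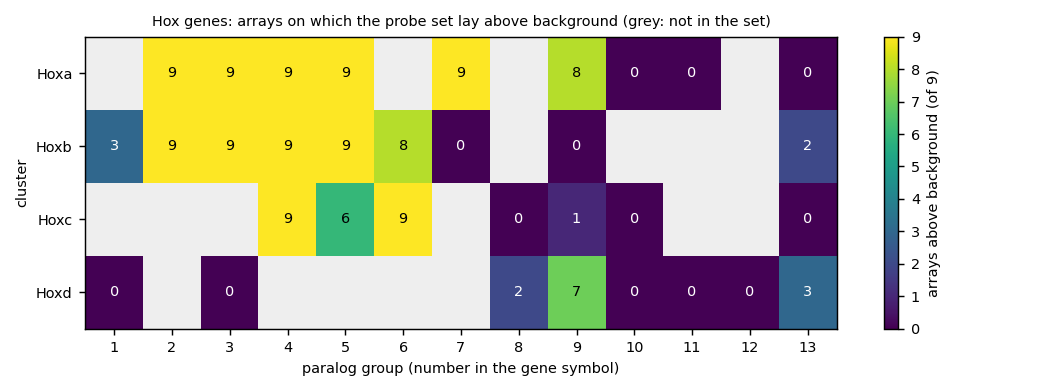
Hox genes by cluster (rows) and paralog group (columns), shaded by the number of arrays, out of 9, on which the probe set lay above the background level, with genes outside the set in grey. Genes of groups 2 to 5 are yellow (9 arrays) except Hoxc5 and Hoxd3, and 8 of the 10 genes of groups 10 to 13 are at 0 arrays.

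Nearly all called differences of homeobox genes from the columnar gate were increases, and the share called was below that of all genes in each comparison, a difference in shares that was not tested. A gene was called where limma's Benjamini-Hochberg adjusted p over all 18193 genes was under 0.05 and the difference at least 2-fold. Against the columnar gate, 7 members were higher in the GFP+ gate and 1 was lower, which is 7.08% of the set, while 11.2% of all genes passed, 5.88% upwards and 5.33% downwards. In the lectin-only gate 7 were higher than in the columnar gate and 0 lower, or 6.19%, against 8.85% of all genes (6.47% upwards and 2.38% downwards). Between the GFP+ and lectin-only gates 0 were higher and 2 lower, or 1.77%, against 3.74% of all genes (0.896% upwards and 2.84% downwards). For the 2 empty directions no other tool was run, and at an unadjusted limma p under 0.05 in either direction, 16 and 7 members passed in those 2 comparisons. The median log2 difference over the 113 genes was -0.05, 0.05 and -0.13 in the 3 comparisons, beside -0.04, 0.07 and -0.10 over all genes. The comparisons share arrays and are not independent of each other.

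Across the gates 12 members were called in at least 1 comparison, where 14.8% of all genes were. They were Barx2, Pbx3, Meis2, Tgif2, Dlx3, Dlx4os, Pitx1, Six2, Prrx2, Hoxa2, Hoxd8 and Hoxd9. The moderated F-test over the 3 gates called 11, all but Six2 (adjusted p = 0.0644), and 13.5% of all genes. Arrays did not overlap between the gates for 23 members in GFP+ against columnar (33.6% of all genes), 17 in lectin-only against columnar (24.6%) and 11 in GFP+ against lectin-only (18.6%). Without lectin-only replicate 1 the F-test called 7 members and the count higher in lectin-only against columnar was 4. The count lower in the GFP+ than in the columnar gate was 0 when columnar replicate 2 or 3 or GFP+ replicate 3 was left out.

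**Figure D3:**
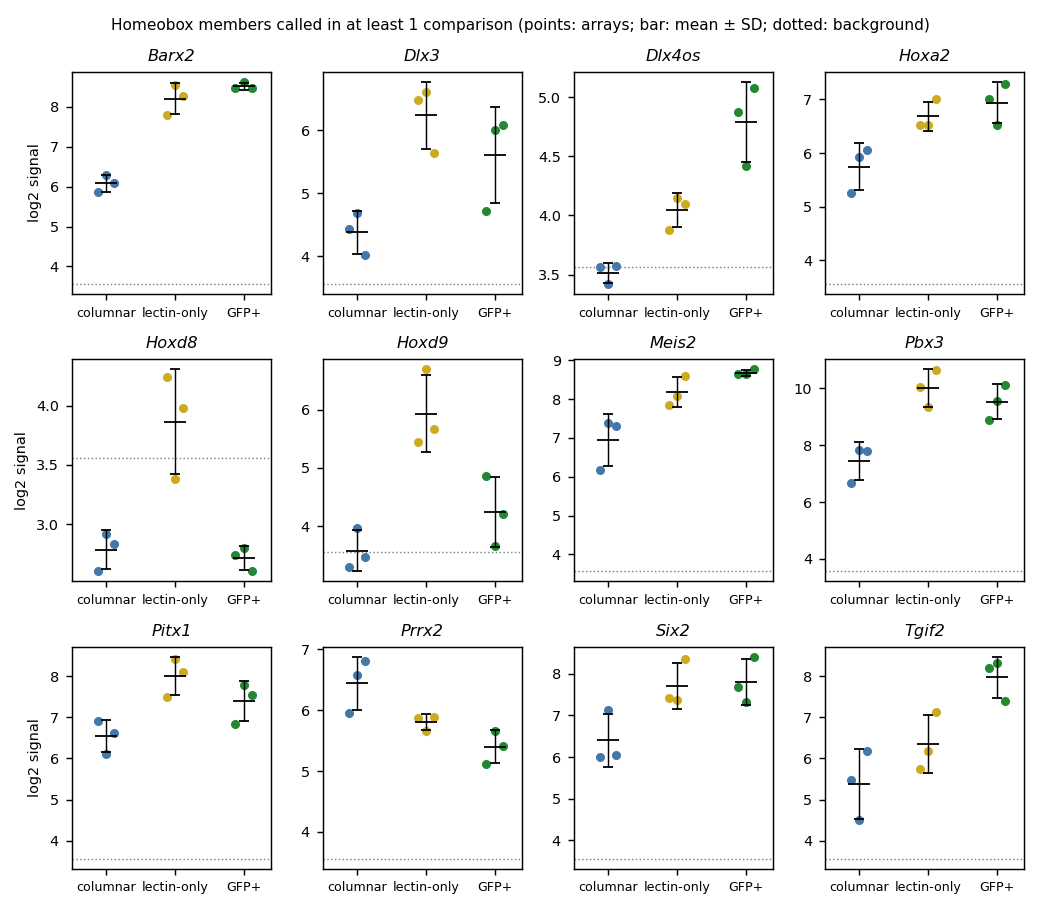
Log2 signal of the 12 called homeobox genes on each array by gate; bars give the mean ± SD of 3 arrays and the dotted line the background level of 3.56. Barx2 and Pbx3 are higher on every array of both lectin-binding gates than on any columnar array, and Hoxd9 is highest on the lectin-only arrays.

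Among the Hox cofactors, Pbx3 and Meis2 were higher in both lectin-binding gates than in the columnar gate. Pbx3, a Pbx protein that binds DNA beside Hox proteins, had log2 signals of 6.66, 7.84 and 7.79 on columnar replicates 1 to 3, of 10.05, 9.34 and 10.65 on the lectin-only and of 8.90, 9.54 and 10.13 on the GFP+ replicates. Every lectin-binding array lay above every columnar array, and the lectin-only and GFP+ arrays overlapped. It was 4.27-fold higher in the GFP+ gate (log2 2.10 ± 0.44, SE, adjusted p = 0.0111) and 6.0-fold higher in the lectin-only gate (2.59 ± 0.44, adjusted p = 0.00485). Between the latter gates the log2 difference was -0.49 (95% interval -1.48 to 0.51), too wide to show that they were alike. A second Pbx3 probe set gave 2.15 and 2.50 against the columnar gate, both called in a separate limma fit of probe sets. All further probe sets below were read from that fit.

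Meis2, a TALE partner of Pbx and Hox proteins, read 6.17, 7.38 and 7.30 on the columnar, 7.85, 8.09 and 8.61 on the lectin-only and 8.64, 8.64 and 8.77 on the GFP+ replicates. The 3 gates did not overlap. Its signal was 3.33-fold higher in the GFP+ than in the columnar gate (1.73 ± 0.33, adjusted p = 0.006) and 2.36-fold higher in the lectin-only gate (1.24 ± 0.33, adjusted p = 0.0402). The latter call was lost without any of the arrays other than columnar replicate 2, at 0.85 to 1.41 and adjusted p between 0.0501 and 0.124, and after quantile normalization (1.05). Between the GFP+ and lectin-only gates Meis2 differed by 0.50 ± 0.33 (adjusted p = 0.565). All 3 further Meis2 probe sets were higher in both lectin-binding gates, with 2 of the 3 called in each comparison.

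Tgif2, a TALE protein that acts as a repressor of TGF-beta signalling, was highest in the GFP+ gate. Its signals were 5.47, 4.49 and 6.18 on the columnar, 5.75, 6.19 and 7.14 on the lectin-only and 8.20, 8.33 and 7.40 on the GFP+ replicates. All GFP+ arrays lay above all others, while the other gates overlapped. Tgif2 was 6.05-fold higher in the GFP+ than in the columnar gate (2.60 ± 0.48, adjusted p = 0.0053). The lectin-only gate differed from the columnar gate by 0.98 ± 0.48 (adjusted p = 0.283), and the GFP+ from the lectin-only gate by 1.62 ± 0.48 (adjusted p = 0.108). A second probe set of Tgif2 was called in the latter comparison, at 1.82 (adjusted p = 0.0187 in the separate limma fit of probe sets).

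The remaining TALE cofactors did not pass. Pbx2 had mean signals of 9.56 ± 0.24 (SD) in the columnar, 9.53 ± 0.25 in the lectin-only and 9.53 ± 0.09 in the GFP+ gate, with a 95% interval of -0.47 to 0.41 for GFP+ minus columnar. Meis1 lay at 6.55 ± 0.49, 6.96 ± 0.63 and 6.58 ± 0.51, and Meis3 at 7.16 ± 0.11, 6.85 ± 0.40 and 6.93 ± 0.17. Pbx4 lay at 5.36 ± 0.16, 5.15 ± 0.69 and 4.74 ± 0.17, and Tgif1, the relative of Tgif2, at 10.02 ± 0.68, 9.86 ± 0.74 and 10.49 ± 0.70. Within the Pbx, Meis and Tgif families, then, 3 of 8 members were called and 5 were not.

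Barx2, a BarH-like factor known from the patterning of epithelial and muscle tissue, separated the columnar gate from both lectin-binding gates. It read 5.87, 6.29 and 6.09 on the columnar, 7.79, 8.55 and 8.27 on the lectin-only and 8.47, 8.62 and 8.46 on the GFP+ replicates. No columnar array came near the others, and the lectin-only and GFP+ ranges overlapped. The difference from the columnar gate was 5.39-fold in the GFP+ gate (2.43 ± 0.22, adjusted p = 9.98e-05) and 4.35-fold in the lectin-only gate (2.12 ± 0.22, adjusted p = 0.000334). Between the lectin-binding gates it was 0.31 (95% interval -0.18 to 0.80). Its relative Barx1 was above background on all arrays and not called.

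Of the distal-less genes, Dlx3, a regulator of epidermal differentiation, was higher in the lectin-only gate than in the columnar gate. Its signals were 4.43, 4.68 and 4.02 on the columnar, 6.47, 6.60 and 5.63 on the lectin-only and 4.72, 6.0 and 6.08 on the GFP+ replicates. Both lectin-binding gates lay above the columnar range, with GFP+ replicate 1 close to it. The lectin-only gate was 3.62-fold higher (1.86 ± 0.40, adjusted p = 0.0145), while GFP+ minus columnar was 1.22 ± 0.40 (adjusted p = 0.0753). Without GFP+ replicate 1, Dlx3 was also called in GFP+ against columnar. Leaving out columnar replicate 3 (1.68, adjusted p = 0.0573) or replicate 1 of the lectin-only gate (1.74, adjusted p = 0.0613) ended the lectin-only call. The second Dlx3 probe set lay under the background level on all arrays, and with the mean of both the difference was 0.87 and not called.

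Dlx4os, a transcript opposite Dlx4, rose in the GFP+ gate. It read 3.56, 3.42 and 3.57 on the columnar, 3.88, 4.15 and 4.10 on the lectin-only and 4.87, 4.42 and 5.08 on the GFP+ replicates. The 3 gates did not overlap, and the columnar signal was about at the background level. Its GFP+ signal was 2.41-fold that of the columnar gate (1.27 ± 0.20, adjusted p = 0.00222). Its annotated span overlaps Dlx4, which lies next to Dlx3 on chromosome 11 with 0 protein-coding genes between them. Dlx4 itself read 4.89 ± 1.04 (SD), 4.93 ± 0.20 and 5.49 ± 0.54 in the columnar, lectin-only and GFP+ gates and was not called (0.61 ± 0.47, adjusted p = 0.505). A second Dlx4 probe set passed in this comparison (adjusted p = 0.0104), but lay under background on all columnar arrays, so its difference is a bound of at least 1.87-fold. Whether these probe sets tell the strands apart was not given in the sources used here.

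Pitx1, a bicoid-related factor of hindlimb and pituitary, was higher in the lectin-only gate. Its signals were 6.90, 6.12 and 6.62 on the columnar, 7.50, 8.42 and 8.11 on the lectin-only and 6.85, 7.78 and 7.54 on the GFP+ replicates. The lectin-only arrays lay above the columnar range, and the GFP+ arrays overlapped both. The difference was 2.75-fold (1.46 ± 0.32, adjusted p = 0.0184), and GFP+ minus columnar was 0.84 ± 0.32 (adjusted p = 0.135). Leaving out columnar replicate 2 (1.24), lectin-only replicate 2 (1.25) or lectin-only replicate 3 (1.41) ended the call, at adjusted p of 0.0673, 0.0591 and 0.0599. A second Pitx1 probe set gave 0.52 and was not called, nor was the mean of both (0.99).

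Six2, known for keeping kidney nephron progenitors undifferentiated, was higher in the GFP+ than in the columnar gate. It read 6.0, 7.14 and 6.06 on the columnar, 7.41, 7.38 and 8.35 on the lectin-only and 7.69, 7.33 and 8.41 on the GFP+ replicates. Columnar replicate 2 lay close to the lectin-binding arrays, and the other columnar arrays well below them. The GFP+ difference was 2.66-fold (1.41 ± 0.40, adjusted p = 0.0456), and lectin-only minus columnar was 1.31 ± 0.40 (adjusted p = 0.0756). The GFP+ call was lost without columnar replicate 1 (1.21) or 3 (1.24), GFP+ replicate 1 (1.47) or 3 (1.11), or lectin-only replicate 1 or 2 (1.41), with adjusted p between 0.0544 and 0.163. Its relatives Six4 and Six5, expressed on all arrays, were not called.

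Prrx2, a paired-related factor of mesenchyme, was the 1 member lower in the GFP+ than in the columnar gate. It read 5.95, 6.57 and 6.80 on the columnar, 5.87, 5.66 and 5.89 on the lectin-only and 5.12, 5.66 and 5.41 on the GFP+ replicates. The columnar arrays lay above all others, by little for replicate 1. The log2 difference was -1.05 ± 0.24 (adjusted p = 0.0182), a 2.07-fold lower signal, and the lectin-only gate differed from the columnar gate by -0.63 ± 0.24 (adjusted p = 0.158). Leaving out replicate 2 (-0.98) or 3 (-0.87) of the columnar gate or 1 (-0.91) or 3 (-1.06) of the GFP+ gate ended the call, with adjusted p between 0.0572 and 0.0693. Fibroblast markers were also lower in the GFP+ than in the columnar arrays, at list means of 4.71 to 5.07 against 5.10 to 5.42, with 5 of 18 called lower and 3 higher. The count of 5 was 3 when GFP+ replicate 1, 2 or 3 was left out, and 5 of the 18 lay under background on all GFP+ arrays against 2 on all columnar arrays. On the lectin-only arrays, where the Prrx2 difference from columnar was -0.63, the fibroblast list means were higher than columnar, at 5.55 to 5.97. There 4 of the 18 fibroblast markers were called higher and 0 lower than in columnar. The part of fibroblasts in the Prrx2 difference was not tested. Prrx1, the mesenchymal relative of Prrx2, was above background on 2 of 9 arrays.

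Of the Hox genes, Hoxa2, Hoxd9 and Hoxd8 were called. Their promoters are shown with that of Six2 as the stretch of 250 bases before the start, since these genes carry the motif matches or are neighbours that share a pattern. The sequences are from RefSeq on GRCm38.p6, at chr6:52164832-52165081 (- strand), chr17:85688255-85688504 (- strand), chr2:74697513-74697762 (+ strand) and chr2:74704365-74704614 (+ strand), 5' to 3' in the direction of the gene, with motif matches on either strand in capitals.
Hoxa2 promoter: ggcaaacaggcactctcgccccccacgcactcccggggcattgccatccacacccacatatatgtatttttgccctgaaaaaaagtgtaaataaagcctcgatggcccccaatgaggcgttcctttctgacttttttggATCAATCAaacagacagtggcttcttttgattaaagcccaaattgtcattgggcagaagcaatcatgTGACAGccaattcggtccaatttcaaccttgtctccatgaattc
Six2 promoter: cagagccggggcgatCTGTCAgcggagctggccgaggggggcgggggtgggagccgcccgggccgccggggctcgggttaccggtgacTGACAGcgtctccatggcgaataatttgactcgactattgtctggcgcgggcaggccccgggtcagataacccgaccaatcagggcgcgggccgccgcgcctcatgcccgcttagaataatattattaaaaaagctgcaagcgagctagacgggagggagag
Hoxd9 promoter: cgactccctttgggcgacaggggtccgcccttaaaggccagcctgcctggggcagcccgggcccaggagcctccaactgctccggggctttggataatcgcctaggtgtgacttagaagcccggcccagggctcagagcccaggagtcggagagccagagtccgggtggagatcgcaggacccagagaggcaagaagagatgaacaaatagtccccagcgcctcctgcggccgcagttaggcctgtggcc
Hoxd8 promoter: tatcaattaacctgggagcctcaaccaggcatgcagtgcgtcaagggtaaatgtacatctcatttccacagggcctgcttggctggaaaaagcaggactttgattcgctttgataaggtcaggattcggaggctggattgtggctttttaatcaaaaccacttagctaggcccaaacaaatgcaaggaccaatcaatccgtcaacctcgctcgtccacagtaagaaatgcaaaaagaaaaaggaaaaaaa
Entries were found for 8 of the 12 called genes, and Barx2, Pbx3, Dlx3 and Pitx1 had none. The motifs searched were TGACAG, the core that Meis and Tgif proteins bind, TGATNNAT, the composite site of Pbx with Hox, and TAATTA, a core homeodomain site. TGACAG occurred in 2 of the 8, once in Hoxa2 and 2 times in Six2, and in 15.9% of 32851 mouse promoter windows of that length. TGATNNAT occurred in Hoxa2 alone of the 8 and in 7.68% of all windows, and TAATTA in 0 of the 8 and 4.84% of all. The 2 kinds of match in Hoxa2 do not overlap. A match is a description of the letters and not a binding site.

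Hoxa2, which patterns the hindbrain and pharyngeal arches, was higher in the GFP+ than in the columnar gate. It read 5.25, 5.93 and 6.06 on the columnar, 6.53, 6.53 and 7.0 on the lectin-only and 7.0, 6.53 and 7.29 on the GFP+ replicates. All lectin-binding arrays lay above the columnar arrays. The GFP+ difference was 2.28-fold (1.19 ± 0.28, adjusted p = 0.0191), and lectin-only minus columnar was 0.94 ± 0.28 (adjusted p = 0.067). Leaving out columnar replicate 1 (0.94) or replicate 1 (1.16) or 3 (1.01) of the GFP+ gate ended the call, with adjusted p between 0.0586 and 0.0784.

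Hoxd9 and Hoxd8, neighbours on chromosome 2 with 0 protein-coding genes between them, were highest in the lectin-only gate. Hoxd9 read 3.30, 3.98 and 3.47 on the columnar, 5.44, 6.69 and 5.67 on the lectin-only and 4.87, 3.67 and 4.22 on the GFP+ replicates. All lectin-only arrays lay above all others. The columnar signal was about at the background level, at a mean of 3.58 with 1 of 3 arrays above it, so the fold against that gate depends on this floor. Against the columnar gate it was 5.10-fold higher in lectin-only cells (2.35 ± 0.39, adjusted p = 0.00399), and 3.20-fold lower in the GFP+ than in the lectin-only gate (-1.68 ± 0.39, adjusted p = 0.0448). The latter call was lost without any of the arrays other than GFP+ replicate 1, at -1.30 to -1.93 and adjusted p between 0.0536 and 0.123. It was also lost when arrays were centred on their medians (-1.55) or quantile normalized (-1.47).

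Hoxd8 read 2.60, 2.92 and 2.83 on the columnar, 4.24, 3.38 and 3.98 on the lectin-only and 2.74, 2.80 and 2.60 on the GFP+ replicates. It exceeded the background level on 2 lectin-only arrays alone, so it does not count as expressed, and its differences are bounds of at least 1.24-fold. The fitted values were 1.09 ± 0.23 for lectin-only minus columnar (adjusted p = 0.0138) and -1.16 ± 0.23 for GFP+ minus lectin-only (adjusted p = 0.0232). The first call ended when columnar replicate 1 (1.00) or lectin-only replicate 1 (0.90) was left out, and when arrays were centred on their medians (0.85) or quantile normalized (0.91). The second was lost without lectin-only replicate 1 (-0.97) or 3 (-1.10) or GFP+ replicate 1 (-1.17), 2 (-1.20) or 3 (-1.10), and after quantile normalization (-0.91). A second probe set gave 0.43 and -0.45 and was not called. Leukocyte markers were highest in the same gate, with 21 of 24 called higher in lectin-only than in columnar and 19 of 24 lower in GFP+ than in lectin-only. Of 12 endothelial markers, 3 were called higher in lectin-only than in columnar, with list means of 4.55 to 4.77 on the lectin-only and 3.68 to 3.97 on the other arrays. Of 18 fibroblast markers, 4 were called higher and 0 lower in lectin-only than in columnar. Between the GFP+ and lectin-only gates 6 of them were lower in GFP+ and 1 higher. Of 10 smooth muscle markers, 4 were called higher in lectin-only than in columnar, a count that fell to 2 as given above. None of the 10 was called between the lectin-binding gates. The part of any of these cell types in the Hoxd8 and Hoxd9 differences was not tested.

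The other expressed Hox genes were not called in any comparison by the probe set of highest mean. Hoxc4 came closest, with 8.39, 8.26 and 8.16 on the columnar, 7.82, 7.72 and 7.98 on the lectin-only and 7.74, 7.21 and 7.31 on the GFP+ replicates. Its columnar arrays lay above all others, at -0.85 ± 0.19 for GFP+ minus columnar (adjusted p = 0.0137), which passed the p-value and not the fold, and it was called without GFP+ replicate 1. Hoxb3 lay at 9.63 ± 0.15 (SD), 10.19 ± 0.23 and 10.02 ± 0.09 in the columnar, lectin-only and GFP+ gates, and Hoxa3 at 9.52 ± 0.11, 9.58 ± 0.01 and 9.45 ± 0.06. Hoxa5, the Hox gene of tracheal and lung development, lay at 7.06 ± 0.27, 7.48 ± 0.26 and 7.15 ± 0.38. Hoxa4 (6.07 ± 0.96, 6.83 ± 0.40 and 6.62 ± 0.03) was called against the columnar gate in both lectin-binding gates only without columnar replicate 3. Hoxb2, Hoxb4, Hoxb5, Hoxa7 and Hoxc6 were above background on all 9 arrays, and Hoxa9, Hoxb6, Hoxc5 and Hoxb5os in some gates only. A second Hoxc5 probe set, at 3.98, 4.04 and 4.20 on the lectin-only arrays and under background on all columnar arrays, was at least 1.43-fold higher in lectin-only than in columnar (adjusted p = 0.00658), while the brighter one differed by -0.10 ± 0.36.

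Most expressed homeobox genes were called in no comparison, among them those best known from the foregut. Nkx2-1 read 5.87, 5.76 and 6.10 on the columnar, 6.12, 6.09 and 6.29 on the lectin-only and 6.44, 5.72 and 5.93 on the GFP+ replicates, with overlapping gates. Its 95% intervals were -0.36 to 0.59 for GFP+ minus columnar, -0.22 to 0.73 for lectin-only minus columnar and -0.61 to 0.34 for GFP+ minus lectin-only, so differences of 2-fold lay outside each. The list means of 6 thyroid and parathyroid markers ranged from 3.54 to 5.31 on the columnar arrays. On the lectin-only arrays they ranged from 2.83 to 3.47, and on the GFP+ arrays from 2.80 to 3.41. Of these 6, Tg alone was called lower in each lectin-binding gate than in columnar, calls lost when some arrays were left out. The part of such cells in the Nkx2-1 values was not tested. Pax9, a paired-box factor of the pharyngeal endoderm and oral epithelium, read 11.78, 12.06 and 11.73 on the columnar, 11.91, 11.96 and 12.07 on the lectin-only and 11.71, 11.84 and 11.83 on the GFP+ replicates. Its intervals were -0.42 to 0.30, -0.24 to 0.49 and -0.55 to 0.17 in the same order. Of the 40 genes above background on all arrays and not called, 27 had intervals within 2-fold in all 3 comparisons, and for the other 13 a 2-fold difference lay within at least 1 interval. These intervals describe the signal of 1 probe set. Some of the 27 lay close to background, such as Nkx1-2 at means of 3.79, 4.09 and 3.81 in the columnar, lectin-only and GFP+ gates. For such dim genes a 2-fold difference was not excluded. Six3 is also among the 27, and its probe sets disagree, as given below.

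The Irx and Cux genes were in this group too. Irx2 lay at 9.95 ± 0.10 (SD), 9.67 ± 0.22 and 9.90 ± 0.03 in the columnar, lectin-only and GFP+ gates, and Irx5 at 10.47 ± 0.44, 10.54 ± 0.39 and 10.57 ± 0.42. Irx3, which lies next to Irx5, had 9.72 ± 0.41, 9.37 ± 0.55 and 9.53 ± 0.31, and Irx1 had 6.84 ± 0.22, 6.45 ± 0.33 and 7.0 ± 0.25. Cux1, a widely expressed homeodomain repressor, lay at 11.15 ± 0.46, 11.20 ± 0.37 and 11.22 ± 0.13, and Cux2 at 9.96 ± 0.22, 9.99 ± 0.41 and 9.89 ± 0.22. Otx1 spread most within a gate, at 6.39 ± 1.49 in the lectin-only gate. The others of the 40 were Emx1, Lhx9, Msx1, Nkx1-2, Nkx2-3, Nkx2-6, Nkx2-9, Nkx6-1, Nkx6-2, Pax4, Pax7 and Six3. A dimmer probe set of Six3 was at least 1.90-fold lower in both lectin-binding gates (adjusted p = 0.001 in GFP+ and 0.00146 in lectin-only), at 4.33, 4.86 and 4.25 on the columnar arrays and under background on all others. The brighter Six3 probe set differed by -0.19 ± 0.19 and -0.20 ± 0.19, so the probe sets of this gene disagree. Over all 40 the log2 differences ran from -0.85 (Hoxc4) to 0.74 (Pax7) for GFP+ minus columnar, from -0.50 (Six5) to 0.76 (Hoxa4) for lectin-only minus columnar and from -0.73 (Hoxb5) to 0.63 (Tgif1) for GFP+ minus lectin-only.

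Among members that were not called, Pax1 had the largest differences from the columnar gate. This paired-box factor of the pharyngeal pouches and sclerotome read 3.51, 3.32 and 5.43 on the columnar, 5.64, 5.80 and 6.81 on the lectin-only and 4.36, 6.04 and 6.27 on the GFP+ replicates. Columnar replicate 3 lay well above the other columnar arrays and close to the lectin-only range. Lectin-only minus columnar was 1.99 ± 0.65 (adjusted p = 0.0919) and GFP+ minus columnar 1.47 ± 0.65 (adjusted p = 0.195), and both were called without columnar replicate 3. Nkx2-2 differed by -0.85 ± 0.52 in GFP+ against columnar, with columnar replicate 1 at 4.41 as its 1 array above background. Hoxb5os (0.90 ± 0.46 in lectin-only against columnar, adjusted p = 0.314) and Hoxb6 (-0.67 ± 0.22 in GFP+ against lectin-only, adjusted p = 0.151) were also among the largest. Dlx5, Lhx3, Lhx4, Lhx6, Nkx2-4 and Pax6 were above background in some gates only, and no difference passed.

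**Figure D4:**
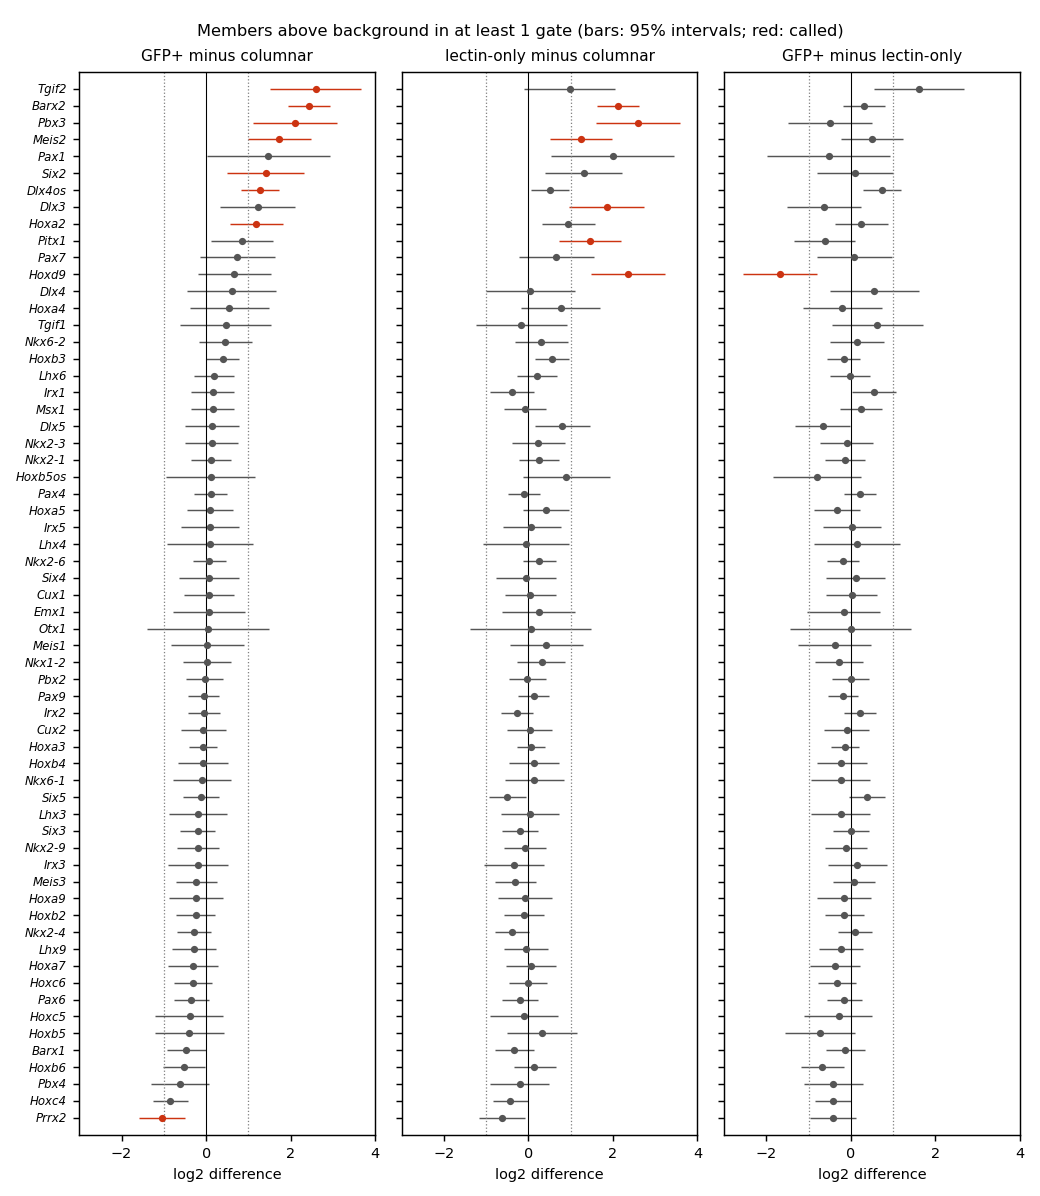
Log2 differences with 95% limma intervals for the 62 expressed homeobox genes in the 3 comparisons, with called genes in red and dotted lines at a 2-fold difference. Red points lie to the right against the columnar gate, from Hoxa2 at 1.19 to Tgif2 at 2.60 in GFP+ minus columnar, with Prrx2 at -1.05 as the exception.

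Homeobox genes outside the name rule, 73 measured of 87 listed, also held few calls. In GFP+ against columnar, 5 were higher and 1 lower (8.22%, where 11.2% of all genes were called), with a median of -0.06. Zfhx4, a large zinc finger homeodomain protein, was lower in both lectin-binding gates, at -2.08 ± 0.36 and -2.04 ± 0.36. Cers6, a ceramide synthase with a homeobox-like domain, was higher in both, at 1.39 ± 0.24 and 1.43 ± 0.24. Nanog was at least 1.79-fold higher in the GFP+ gate than in the columnar gate, but has near-identical pseudogene copies that make its signal uncertain. Satb1 (1.48 ± 0.41), the Meis relative Pknox2 (1.39 ± 0.38) and Meox1 (1.16 ± 0.31) were also higher in GFP+ than in columnar, but these calls were each lost under at least 6 of 16 alternatives. The count of 5 was 2 without columnar replicate 1 or GFP+ replicate 3, and 3 without columnar replicate 2, columnar replicate 3 or GFP+ replicate 1. Mkx, the tendon factor Mohawk, was lower in lectin-only than in columnar (-1.51 ± 0.32), a call lost without columnar replicate 2.

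Of 36 measured partner proteins of homeodomain factors, 30 were not called in GFP+ against columnar, 2 were higher and 4 lower (16.7%, where 11.2% of all genes were called, median 0.04). In lectin-only against columnar 2 were higher and 1 lower (8.33%, beside 8.85% of all genes). Lmo1, a LIM-only adaptor, was higher in GFP+ by 3.59 ± 0.26 and in lectin-only by 1.92 ± 0.26, while its relatives Lmo2 and Lmo3 were lower in GFP+ than in columnar by -2.46 ± 0.25 and -2.18 ± 0.45. Gmnn, the replication inhibitor geminin that also binds Hox proteins, was lower in both lectin-binding gates, at -1.97 ± 0.31 and -1.53 ± 0.31. The corepressor Tle2 was lower (-1.24 ± 0.23) and the Ldb cofactor Ssbp2 higher (1.31 ± 0.22) in GFP+ than in columnar. Of 36 measured chromatin regulators of Hox clusters, 2 were called in GFP+ against columnar (5.56%, below the 11.2% of all genes), both higher. They were the Polycomb proteins Cbx2 (1.78 ± 0.22) and Pcgf3 (1.12 ± 0.19), and the Pcgf3 call was lost without columnar replicate 1 or GFP+ replicate 3. With the mean of all probe sets of a gene, Ssbp2 (0.82), Cbx2 (0.83) and Pcgf3 (0.66) were no longer called.

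Retinoid genes, which act on Hox clusters in the embryo, held 1 higher and 1 lower of 16 measured in GFP+ against columnar, and 3 called in lectin-only against columnar, all higher. These are 12.5% and 18.8% of the list, beside 11.2% and 8.85% of all genes. Cyp26b1, which degrades retinoic acid, was higher by 4.08 ± 0.27 in GFP+ and by 1.93 ± 0.27 in lectin-only. Rdh10, which makes its precursor retinaldehyde, was lower in GFP+ by -1.82 ± 0.25. Aldh1a3, which makes retinoic acid, and its binding protein Crabp2 were higher in lectin-only than in columnar, by 6.34 ± 1.23 and 4.63 ± 0.75. Neither gene was called between the GFP+ and lectin-only gates, so a difference between those gates was not shown. The count higher in GFP+ than in columnar was 2 with a replicate block or trended robust eBayes, and 3 without columnar replicate 3 or GFP+ replicate 1.

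Of 22 measured lung identity genes and partners of Nkx2-1, 5 were lower and 1 higher in GFP+ than in columnar, and 5 were called in lectin-only against columnar, all lower. These are 27.3% and 22.7% of the list, beside 11.2% and 8.85% of all genes, and 2 genes were called higher in lectin-only when columnar replicate 1 was left out. Foxa2, a forkhead factor of the endoderm, was lower by -3.24 ± 0.29 in GFP+ and by -2.18 ± 0.29 in lectin-only. The surfactant genes Sftpa1, Sftpb, Sftpc and Sftpd were lower in GFP+, from -1.83 ± 0.33 for Sftpb to -3.51 ± 0.55 for Sftpa1. Etv5, an effector of FGF signalling, was higher in GFP+ by 2.17 ± 0.52, a call lost without GFP+ replicate 1 or 2. The values for Nkx2-1 itself stand above, with no call in any comparison.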

How the data were processed

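RNA of 3 sorted gates, with 3 biological replicates each, was measured on Affymetrix mouse arrays. The authors deposited log2 probe set signals made with RMA, a background correction, normalization and probe summary, per the submitters' processing notes; its software version is not given in the sources used here. Array medians were 4.91 to 5.16 on 8 arrays and 5.44 on lectin-only replicate 3, so other scalings were tried. Of 45101 probe sets, 34945 had 1 gene symbol, and for 34741 of them the gene identifier was found in RefSeq, whose symbol was used. Those with several symbols or none were not used, nor were 64 controls. The probe set with the highest mean stood for each of 18193 genes.

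Gate means were fitted to all 9 arrays with limma 3.58.1 in R 4.3.3 (lmFit, eBayes), with Benjamini-Hochberg adjustment over all genes, and the procedure was tested on simulated data. All gene p-values are two-sided and from limma. Calls needed adjusted p under 0.05 and an absolute log2 difference of at least 1. Further probe sets of a gene were read from a separate limma fit of probe sets with its own adjustment. In that fit the main Meis2 probe set was not called in lectin-only against columnar (adjusted p = 0.0518). Nor were those of Six2 in GFP+ against columnar (0.0558) and Hoxd9 in GFP+ against lectin-only (0.0612). Errors are SE for differences and SD for levels. The background level was the 95th percentile of 80 receptor probe sets; where a gene lay under it on all arrays of a gate, the bound sets dim arrays to the level. The 3 arrays per gate limit the precision (median SE 0.24). The labels call the replicates biological; whether they came from separate mice is not stated, so p-values measure the spread between these samples.

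Named were all called members, all others above background on all 9 arrays or in whole gates, up to 5 uncalled members of largest difference per comparison, and up to 4 called genes per list. Members and lists were chosen with earlier results of these data known. Alternatives were a replicate block, median centring, quantile normalization, other choices of probe set, a background filter, trended robust eBayes, other background percentiles and leaving out each array.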

Additional observations from a re-analysis of the deposited data

How the results depend on the processing

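Of the 17 calls of members, 8 were kept under each alternative run: Barx2 and Pbx3 in both lectin-binding gates against columnar, Meis2, Tgif2 and Dlx4os in GFP+ against columnar, and Hoxd9 in lectin-only against columnar. No call changed direction. The 2 members lower in GFP+ than in lectin-only were 1 with a replicate block, with arrays centred on their medians, without probe sets ending in _s_at or _x_at, with the mean of all probe sets of a gene and with a filter on the background level, and 0 after a further quantile normalization. The 0 members higher in that comparison became 1, Tgif2, with centred arrays and with the mean of all probe sets. The 7 members higher in lectin-only than in columnar were 4 with the mean of all probe sets. The 62 expressed members were 41 with the background level at the 99th percentile (4.89), so part of the expressed set lies close to background.

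When each array was left out in turn, members higher in GFP+ than in columnar numbered 5 to 8 and those lower 0 to 1. Those higher in lectin-only than in columnar numbered 4 to 7, and those lower in GFP+ than in lectin-only 0 to 1. Members that differ over the gates numbered 7 to 10, and those expressed 62 to 64. Each such fit had fewer arrays, and the part of this in the lost calls was not tested. Some fits also gained calls, such as Hoxa4 and Pax1 against columnar without columnar replicate 3. The median over all genes in lectin-only minus columnar was 0.07 as deposited, -0.16 with centred arrays and -0.04 after quantile normalization.

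The replicate numbers were not taken as pairs: same-numbered arrays of different gates correlated between -0.07 and 0.33 in their deviations from the gate means. With the replicate number as a block, 9 members were called in GFP+ against columnar, 8 in lectin-only against columnar and 1 in GFP+ against lectin-only; Pax1 was gained in the first pair and Hoxd9 lost in the last.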
